A study of Mus musculus with 19 samples.

Results

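The chemokine system of the mouse endometrium was described through 61 genes, all chemokine ligands, receptors and atypical receptors among the 49089 genes of the counts. Members were chosen by symbol alone, as genes whose name begins with Ccl, Cxcl, Cx3cl, Xcl, Ccr, Cxcr, Cx3cr, Xcr or Ackr followed by a digit. Of 63 such genes, 2 were left out by the rule (Cxcl15 and Ccr3). By symbol the members were 23 CC ligands, 12 CXC ligands, 2 other ligands (Cx3cl1 and Xcl1), 18 receptors, 4 atypical receptors and 2 pseudogenes. Cxcl11, counted among the CXC ligands, is annotated as a polymorphic pseudogene.

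Endometrial RNA came from wild-type C57Bl/6 females and was sequenced as 19 libraries in 5 groups, named here by the prefix of their count columns. The published methods give an age of 8 to 14 weeks for females housed with males, and none for the estrus females. CONT (n = 3, numbered 1, 2 and 4) was unmated females at estrus, around ovulation. The other groups (n = 4 each) were females collected on day 3.5 pc, before the time of embryo attachment, after mating with BALB/c males. INT females were mated with intact males, and SVX, SVX_VAS and VAS females with surgically modified males. For these 3 sets the column prefix and the sample titles give different surgeries: the SVX columns are titled vasectomised, the SVX_VAS columns seminal vesicle-deficient, and the VAS columns both, so no surgery is assigned to them here. The tissue was scraped from the muscle layer and pooled before sequencing. Estrus tissue was taken late in the evening and day 3.5 pc tissue at noon, so time of day cannot be told apart from state in comparisons with CONT. The labels do not say how many mice made a pool, so the tests measure the spread between pools.

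Chemokines are small secreted proteins that bind heparan sulfate on cells and matrix and form gradients along which leukocytes move. They act through G protein-coupled receptors, many of which bind several ligands, while atypical receptors take ligands up without G protein signalling and so shape their level. In the uterus, chemokines made by stroma, epithelium and endothelium are known to guide macrophages, dendritic cells, NK cells and eosinophils, whose numbers change across the cycle and early pregnancy. The comparison of day 3.5 pc with estrus asks how these genes differ between the pre-implantation and the peri-ovulatory endometrium. That of the modified sets with INT asks whether they differ with surgery on the male partner. By either label some of these sets are vasectomised, where sperm and embryos may be absent too. An effect of seminal fluid alone can therefore not be told apart.

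Library totals ranged from 12661266 to 31781270 counts. A total of 3 counts, taken as the limit of detection, amounted to 0.107 to 0.234 CPM, the count scaled to library size with TMM factors. Markers of stroma, epithelium and endothelium were present in every library, as the endometrial label implies. VAS replicates 2 and 3 stood apart from the other 17 libraries: on the first principal component of all tested genes they lay at 189 and 190, and every other library at or below -1.22. Their summed level of 6 stromal genes was 1418 and 1572 CPM, against 3769.6 to 6777 CPM elsewhere. Mated libraries also differed in 7 estrogen-responsive genes such as Ltf and Lcn2, whose summed level was 11562 to 15017 CPM in CONT, 9975 CPM in INT replicate 1, 10609.9 CPM in SVX_VAS replicate 2, 3897 CPM in INT replicate 2, 3430.1 CPM in VAS replicate 1, and 1532 CPM or less in the other mated libraries.

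The promoters of 4 ligands that the results turn on are shown as the 250 bases before the start site, from RefSeq on build GRCm38.p6, each on the strand of its gene. Capitals mark letters of an interferon-response element (ISRE: GAAA, any 2 bases, GAAA) or of an NF-kB-like site (GGG, any 5 bases, CC), searched on both strands. Cxcl9 and Cxcl10 are neighbouring genes with known interferon induction, Cxcl12 held the most counts of the members, and Ccl28 is the epithelial ligand that was highest in CPM at estrus.
Cxcl9 (chr5:92328080-92328329, minus strand): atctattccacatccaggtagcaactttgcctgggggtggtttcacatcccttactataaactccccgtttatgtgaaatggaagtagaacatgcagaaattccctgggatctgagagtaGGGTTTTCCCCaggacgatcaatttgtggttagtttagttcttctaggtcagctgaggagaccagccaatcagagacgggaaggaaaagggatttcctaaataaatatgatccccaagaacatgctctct
Cxcl10 (chr5:92348890-92349139, minus strand): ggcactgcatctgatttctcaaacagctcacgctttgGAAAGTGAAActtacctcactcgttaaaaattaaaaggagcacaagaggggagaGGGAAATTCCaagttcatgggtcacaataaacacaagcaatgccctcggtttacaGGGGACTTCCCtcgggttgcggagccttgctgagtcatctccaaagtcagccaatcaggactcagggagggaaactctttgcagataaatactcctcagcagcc
Cxcl12 (chr6:117168285-117168534, plus strand): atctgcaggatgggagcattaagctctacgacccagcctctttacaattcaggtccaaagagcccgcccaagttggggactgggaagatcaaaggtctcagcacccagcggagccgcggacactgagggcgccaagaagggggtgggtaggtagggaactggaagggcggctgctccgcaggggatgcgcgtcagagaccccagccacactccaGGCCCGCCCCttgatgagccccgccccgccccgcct
Ccl28 (chr13:119623569-119623818, plus strand): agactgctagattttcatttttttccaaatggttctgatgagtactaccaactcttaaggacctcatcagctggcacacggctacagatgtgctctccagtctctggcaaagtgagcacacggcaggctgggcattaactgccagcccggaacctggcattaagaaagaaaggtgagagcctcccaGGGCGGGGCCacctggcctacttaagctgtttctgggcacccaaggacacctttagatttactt
Cxcl10 held ISRE letters 213 bases before the start and NF-kB-like letters at 159, 104 and 103 bases, of which the last pair overlap. Cxcl9 held overlapping NF-kB-like letters at 130 and 129 bases, Ccl28 at 64 bases and Cxcl12 at 36 bases. Of the 61 members, 44 had a promoter in the RefSeq table. ISRE letters were in 3 of these 44 (6.82%) against 2.98% of all 32851 promoters of this length, and NF-kB-like letters in 24 (54.5%) against 45.8%. An interferon-gamma activated site (GAS: TTC, any 3 bases, GAA) was in 4 of the 44 (9.09%) against 7.02% of all. Full palindromic estrogen-response (GGTCA, any 3 bases, TGACC) and progesterone-response (AGAACA, any 3 bases, TGTTCT) elements were in 0 of the 44, against 0.0639% and 0.00913% of all promoters. These matches are letters in a window and are not evidence of a bound factor.

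Transcript levels are given as CPM and, to compare genes, as CPM per kilobase of exon. Over the 19 libraries the 10 highest members per kilobase were Cxcl17 (mean level 57.4 CPM per kb), Ccl28 (20.6), Cxcl14 (17.6), Cxcl12 (15.2), Ccl8 (12.0), Cxcl16 (10.9), Ackr3 (10.2), Ccl11 (9.92), Ccr2 (8.43) and Xcl1 (7.48). The order differed between the states. At estrus Cxcl17, a mucosal ligand, was at 183 ± 24.2 CPM per kb (SD, n = 3), Ccl28 at 62.1 ± 7.22 and Ccl11 at 32.0 ± 7.60, whereas Cxcl12 was at 2.92 ± 0.722. In INT, Cxcl12 was at 16.5 ± 4.20 CPM per kb (SD, n = 4), Cxcl14 at 21.1 ± 11.5, Ccl28 at 20.1 ± 24.5 and Cxcl17 at 45.4 ± 44.7, and with these SDs the order of the INT levels was not resolved.

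Of the 61 members, 30 passed the filter on low counts (at least 3 CPM in at least 3 libraries) and were tested, namely 9 CC ligands, 7 CXC ligands, both other ligands, 9 receptors and 3 atypical receptors. A gene was called when its FDR, the Benjamini-Hochberg adjusted p of edgeR's quasi-likelihood test over all 17222 genes tested, was 0.05 or less and its logFC was at least 0.58 in size. In INT against CONT, 17 of the 30 were called (56.7%), against 33.6% of all genes tested. Of these 13 rose (43.3%; 20.9% of all genes) and 4 fell (13.3%; 12.7% of all genes). The number that fell was 1 without CONT replicate 2 or INT replicate 4, 2 without CONT replicate 4 or INT replicate 3, and 6 without INT replicate 1. Of the tested members 10 had no CONT library at 3 CPM and passed the filter through mated libraries, and 7 of these are among the 13 that rose, so the count of rises is a description and not a result about the members. In INT and CONT the values of 14 members did not overlap with INT higher (46.7%; 31% of all genes), and those of 4 did not overlap with INT lower (13.3%; 31.3% of all genes). The median logFC of the 30 was 0.50, and that of all genes tested was -0.01. Among 9 tested receptors 7 rose and 0 fell, and among the 18 tested ligands 6 rose and 3 fell (20.9% of all genes rose and 12.7% fell). The receptors Ccr10, Cxcr3 and Xcr1 had no CONT library at 3 CPM. The same holds for the ligands Ccl27a, Ccl5, Cxcl5, Cxcl9, Cxcl10 and Xcl1, so this split is a description too. The heat map shows tested members by library.

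**Figure D1:**
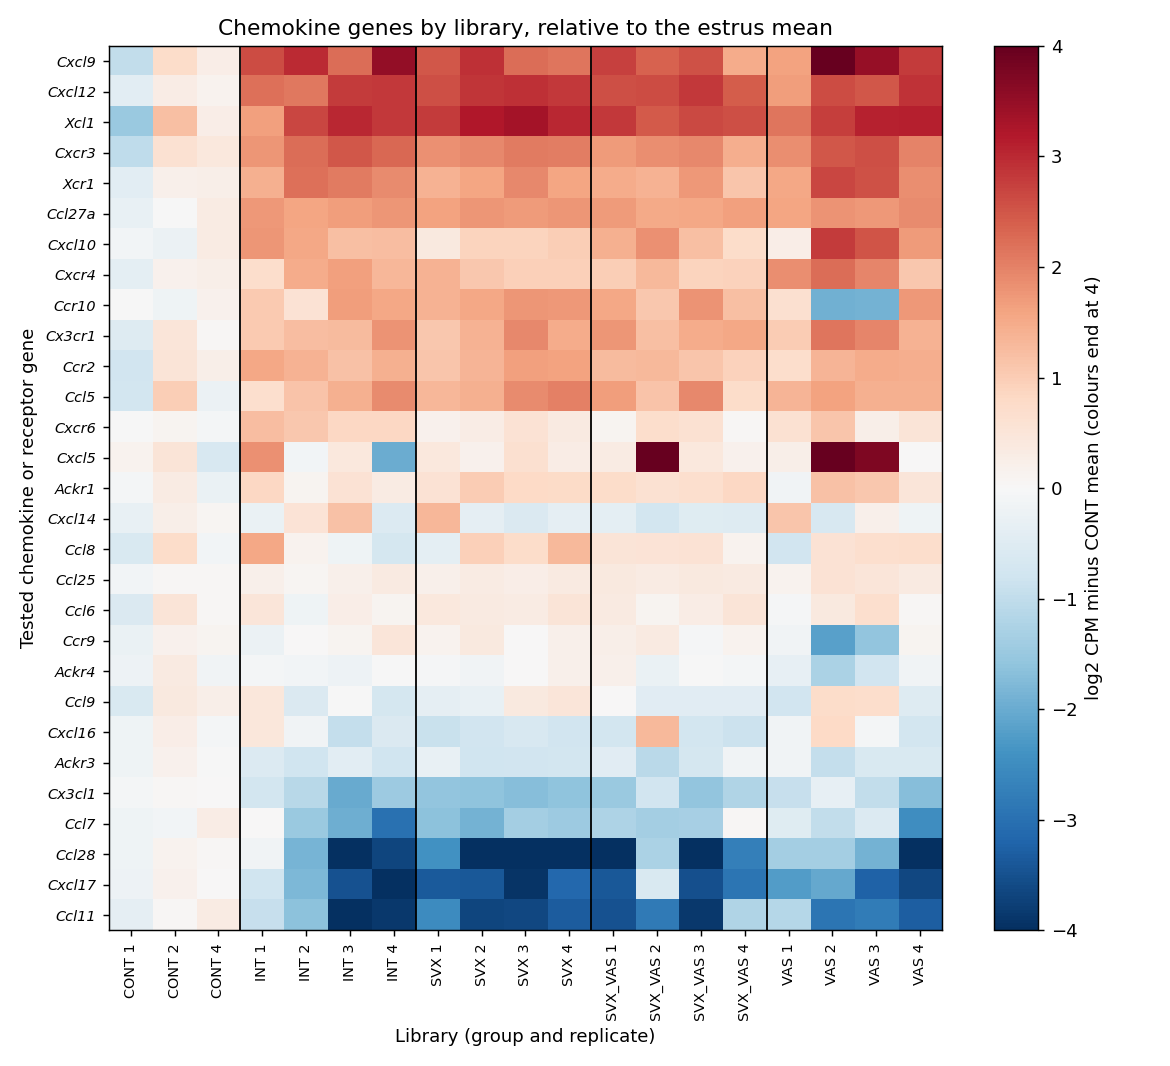
Each row is 1 tested chemokine or receptor gene and each column a library, coloured by log2 CPM (with 0.120 CPM added) minus the CONT mean, with genes in the order of logFC in INT against CONT. Cxcl9, Cxcl12 and Xcl1 at the top were higher in all 16 mated libraries than the CONT mean, Ccl11, Cxcl17 and Ccl28 at the bottom were lower, and VAS replicates 2 and 3 and SVX_VAS replicate 2 differ from their groups in Cxcl5.

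Cxcl12, the homeostatic ligand of Cxcr4 made by stromal and vascular cells, gave the lowest FDR but one of the members. The gene lies on chromosome 6, 117168535 to 117181367. Its level was 17.2, 28.6 and 25.6 CPM in CONT and 109, 102, 164 and 165 CPM in INT, and the groups did not overlap. It rose 5.65-fold (logFC 2.50 ± 0.27 SE, FDR = 5.41e-06). The same gene rose in SVX (logFC 2.78), SVX_VAS (2.59) and VAS (2.45), where the lowest mated library of all, VAS replicate 1, held 73.9 CPM. Its receptor Cxcr4, found on many leukocytes and on endothelium, was at 2.54, 3.75 and 3.92 CPM in CONT and 5.49, 9.52, 10.7 and 8.56 CPM in INT. Cxcr4 rose in INT (logFC 1.33 ± 0.27, FDR = 0.000793) and was highest in VAS replicates 2, 3 and 1 (16.2, 13.3 and 12.3 CPM). Ackr3, the atypical receptor that removes Cxcl12, went the other way: it was at 42.4, 54.2 and 47.2 CPM in CONT and 32.9, 27.2, 35.2 and 27.7 CPM in INT, and fell by 0.64 on the log2 scale (SE 0.21, FDR = 0.0183). The Ackr3 call in INT was lost without CONT replicate 2 (logFC -0.54, FDR = 0.0753) or without INT replicate 4 (-0.59, FDR = 0.0509). In SVX the call (-0.65, FDR = 0.0136) was lost without CONT replicate 2 (FDR = 0.0595). In SVX_VAS and VAS the Ackr3 logFC was -0.56 in both, under the fold threshold. Markers of endothelium moved with Cxcl12: 6 of 6 listed genes rose in INT, and their summed level was 163 to 241 CPM in CONT and 623 to 958 CPM in INT. Whether more cells of a type or more RNA per cell made such a rise cannot be told apart in bulk tissue, and the part of endothelium in the Cxcl12 result was not tested.

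Cx3cl1 and its receptor moved in opposite directions. Cx3cl1, the membrane-tethered ligand fractalkine (chromosome 8, 94772009 to 94782427), was at 51.9, 57.7 and 56.4 CPM in CONT and 33.4, 25.3, 13.6 and 20.0 CPM in INT. It fell by 1.26 on the log2 scale (SE 0.29, FDR = 0.00182), and every mated library was below every CONT library, with the nearest, VAS replicate 2, at 43.8 CPM. Its receptor Cx3cr1, a marker of monocytes and resident macrophages, was at 6.02, 12.2 and 9.12 CPM in CONT and 18.4, 20.9, 21.4 and 30.7 CPM in INT. Cx3cr1 rose 2.50-fold (logFC 1.32 ± 0.30, FDR = 0.00164), with no overlap. Macrophage markers moved with it: 6 of 8 tested rose in INT, including Lyz2, Adgre1, Csf1r and the C1q genes, while Cd68 fell, and their summed level was 172 to 307 CPM in CONT and 389 to 523 CPM in INT. Their part in the Cx3cr1 result was not tested.

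Xcl1, made by NK and T cells, and Xcr1, its receptor on cross-presenting dendritic cells, rose together. Xcl1 was at 0.118, 1.39 and 0.678 CPM in CONT, of which the lowest rests on 2 counts, and at 1.95, 4.07, 5.27 and 4.52 CPM in INT. The groups did not overlap, and the logFC was 2.38 ± 0.50 (FDR = 0.00109). Xcr1 was at 0.532, 0.892 and 0.904 CPM in CONT and 2.25, 3.94, 3.57 and 3.13 CPM in INT (logFC 2.04 ± 0.32, FDR = 9.53e-05). All 7 NK cell markers rose in INT, such as Gzmb (logFC 2.23) and Ncr1 (1.68), and their summed level was 9.86 to 30.4 CPM in CONT and 49.3 to 85.3 CPM in INT. Of 6 dendritic cell markers 4 rose, including Clec9a (logFC 1.75), which marks the cells that carry Xcr1, and the list summed to 21.6 to 42.0 CPM in CONT and 77.3 to 114 CPM in INT. The part of these cells in the rises was not tested. Exons of Xcl1 overlap those of Gm20743 on the opposite strand, which also rose (logFC 1.44, FDR = 0.0404). Since it is not stated whether counting used strand, reads of such pairs may be shared. Exons of 8 members overlap such genes. These are Xcl1, Cxcl10, Cxcl11, Ccl27a, Ccr9, Ccl25 (Elavl1, 144 CPM in CONT), Ackr4 (Acad11, 43.2 CPM) and Cxcl16 (Zmynd15, 13.3 CPM).

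The interferon-inducible ligands Cxcl9 and Cxcl10 and their receptor Cxcr3, which guides activated T and NK cells, were each called higher in INT, from low levels. Cxcl11, named as a further ligand of this receptor but annotated as a polymorphic pseudogene, was not tested. Cxcl9 was at 0.0591, 0.464 and 0.301 CPM in CONT, the first of which is 1 count, and at 2.03, 2.69, 1.53 and 3.90 CPM in INT. Its logFC of 3.10 ± 0.64 (FDR = 0.000846) was the largest of the 30 members tested at this filter, and the groups did not overlap. Cxcl9 passed the filter through 3 mated libraries, of which 2 were VAS replicates 2 and 3, and was not tested without them. By limma-voom it was not called in SVX (FDR = 0.0667) or SVX_VAS (FDR = 0.0737). Cxcl10 was at 1.18, 1.07 and 1.66 CPM in CONT and 4.66, 3.94, 3.12 and 3.20 CPM in INT (logFC 1.52 ± 0.46, FDR = 0.0122). The Cxcl10 call was lost without CONT replicate 2 (logFC 1.39, FDR = 0.0510) and under limma-voom (FDR = 0.0918). In SVX it was not called (0.85, FDR = 0.127). Exons of Cxcl10 overlap Art3 on the opposite strand, which rose by 1.46 on the log2 scale (FDR = 0.000216). Cxcr3 was at 0.236, 0.963 and 0.8286 CPM in CONT and 2.33, 3.26, 3.85 and 3.41 CPM in INT (logFC 2.22 ± 0.35, FDR = 0.000107), again with no overlap. In SVX_VAS the Cxcl10 call (1.41, FDR = 0.016) was lost without CONT replicate 1 (FDR = 0.0571) or 2 (0.0632). In VAS, Cxcl9 and Cxcl10 were highest in the libraries that stand apart (replicates 2 and 3, Cxcl10 9.64 and 7.94 CPM) and lowest in replicate 1 (1.57 CPM). Without replicates 2 and 3 the Cxcl10 logFC in VAS was 1.21 (FDR = 0.0213), against 2.19 with them. Of 8 T cell markers 5 were tested and 3 rose in INT (Cd3e, Cd3g and Cd4), and the list summed to 20.3 to 21.7 CPM in CONT and 31.5 to 47.2 CPM in INT. Its part in the Cxcr3 result was not tested. Irf1, a transcription factor induced by interferon, fell by 0.74 on the log2 scale in INT (FDR = 0.00129), and Ifng was not tested for low counts.

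**Figure D2:**
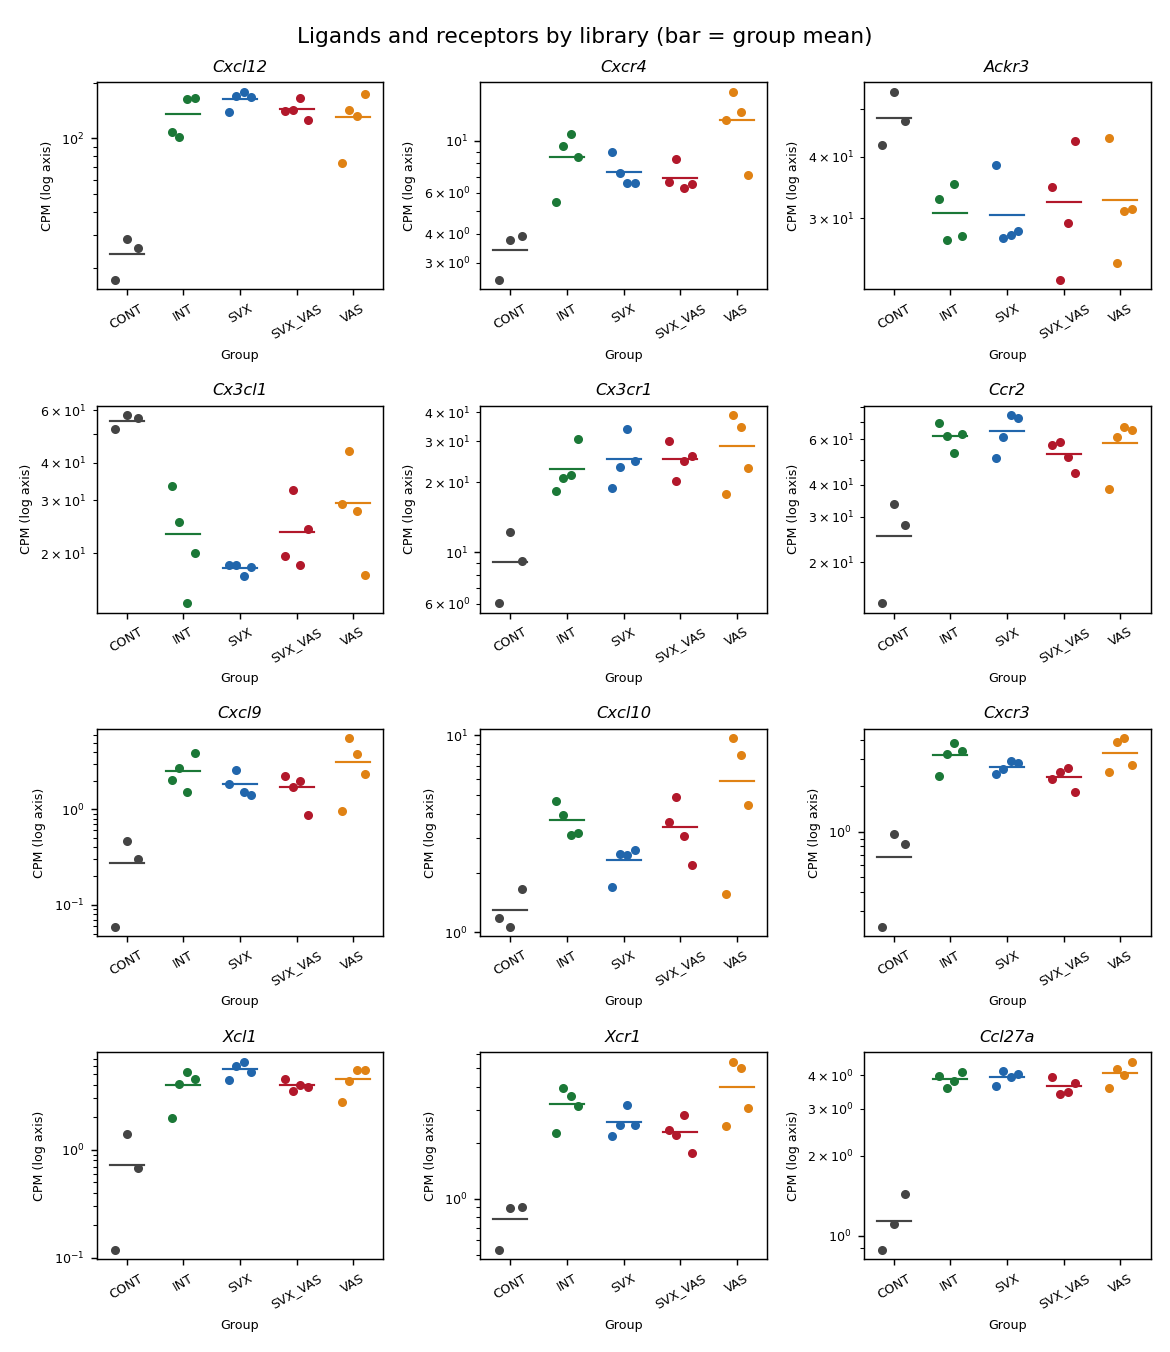
Each panel plots CPM on a log axis for 1 gene, with 1 point per library and a bar at the group mean. Cxcl12 lies at 17.2 to 28.6 CPM in CONT and at 73.9 CPM or more in the mated groups, Cx3cr1, Cxcr4, Ccr2, Cxcr3 and Xcr1 are higher in the mated groups, and Ackr3 and Cx3cl1 are lower.

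Ccr2 and Cxcr6, receptors of monocytes and of lymphocytes, were called higher in INT. Ccr2, by which monocytes leave the blood, was the highest signalling receptor per kilobase on the mean of the 19 libraries. In CONT alone Ccr2 was at 3.94 ± 1.60 CPM per kb (SD) and Cxcr6 at 4.21 ± 0.29. By library Ccr2 was at 13.9, 33.7 and 28.0 CPM in CONT and 69.7, 61.9, 53.2 and 63.0 CPM in INT (logFC 1.29 ± 0.25, FDR = 0.000552). Ccr2 lies on chromosome 9 (124101950 to 124113557), in a cluster that also holds Xcr1 (123852315 to 123862029), Cxcr6 (123806477 to 123811754) and Ccr9 (123678439 to 123783457). Of these 4 genes Ccr2, Xcr1 and Cxcr6 rose in INT, and Ccr9 was not called. Cxcr6, a receptor of tissue-resident lymphocytes, was at 7.80, 8.60 and 7.53 CPM in CONT and 19.01, 17.0, 14.2 and 14.3 CPM in INT (logFC 1.01 ± 0.21, FDR = 0.000854). Cxcr6 was not called in SVX (0.36, FDR = 0.153) or SVX_VAS (0.40, FDR = 0.109). Of 5 general leukocyte markers 4 rose and 1 fell in INT, and their sum was 123 to 191 CPM in CONT and 237 to 285 CPM in INT. Of 5 red blood cell genes 4 rose, with sums of 27.1 to 39.0 and 54.9 to 95.4 CPM. The part of leukocyte number or blood in these results was not tested. The ligand of Cxcr6, the membrane-bound Cxcl16, was not called in INT (32.1, 43.6 and 34.2 CPM in CONT against 50.1, 33.2, 18.6 and 24.2 CPM, logFC -0.22 ± 0.48, FDR = 0.756).

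Among ligands of monocytes and T cells, Ccl5 was called higher in INT and Ccl7 and Ccl8 were not called. Ccl5, made by T and NK cells, was at 0.709, 2.64 and 1.05 CPM in CONT and 2.10, 2.94, 3.63 and 5.08 CPM in INT, and these ranges overlapped. It rose by logFC 1.19 ± 0.41 (FDR = 0.0243), but the call was lost without CONT replicate 1 (0.87, FDR = 0.118), CONT replicate 4 (1.01, FDR = 0.0968), INT replicate 3 (1.14, FDR = 0.0517) or INT replicate 4 (0.95, FDR = 0.0823), and under limma-voom (1.13, FDR = 0.0522). Without CONT replicate 2, its highest CONT library, the logFC was 1.96 (FDR = 0.00144). Without CONT replicate 1 or 4 its call was also lost in SVX_VAS (FDR = 0.0798 and 0.067) and in VAS (FDR = 0.0681 and 0.0585). Ccl7, a monocyte attractant, was at 3.60, 3.82 and 5.05 CPM in CONT and 4.13, 1.38, 0.963 and 0.417 CPM in INT (logFC -1.28 ± 0.59, FDR = 0.0879), and without INT replicate 1 it was called (-2.16, FDR = 0.00386). Ccl8, the highest of these ligands per kilobase, ranged from 2.84 to 7.31 CPM in CONT and from 2.64 to 13.1 CPM in INT and was not called (FDR = 0.615). Ccl2, Ccl12, Ccl3 and Ccl4 were below the filter. With the filter lowered to 1 CPM, Ccl3 was called higher in INT (logFC 1.27, FDR = 0.0151), from 0.354, 0.464 and 0.301 CPM in CONT to 0.526, 1.06, 0.850 and 1.39 CPM in INT. At that filter Ccl4 (0.86, FDR = 0.149), Ccl2 (-0.27, FDR = 0.591) and Ccl12 (-0.56, FDR = 0.497) were not called in INT.

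Cxcl17 and Ccl28, ligands made by mucosal epithelium, had their highest group means at estrus, and Cxcl17 was called lower in INT and Ccl28 was not. Cxcl17 (chromosome 7, 25400053 to 25412886), which attracts monocytes at mucosal surfaces, was at 120.5, 157 and 140.2 CPM in CONT and 80.5, 39.9, 12.2 and 5.63 CPM in INT. The groups did not overlap, and the logFC was -2.01 ± 0.77 (FDR = 0.0400). The call was lost without any CONT replicate or without INT replicate 2, 3 or 4, with logFC from -2.11 to -1.66 and FDR up to 0.0890. In SVX_VAS the Cxcl17 call (-2.05, FDR = 0.0332) was lost without any CONT replicate or without SVX_VAS replicate 1, 3 or 4 (FDR 0.0541 to 0.0875). Ccl28 (chromosome 13, 119623819 to 119654354), which draws antibody-secreting cells through Ccr10, was at 203, 256 and 237 CPM in CONT and spread widely in INT (208, 63.3, 11.4 and 18.02 CPM). It was not called there (logFC -1.63 ± 1.03, FDR = 0.210), and without INT replicate 1 it was called (-2.91, FDR = 0.0352). Ccl28 fell in SVX (logFC -3.85 ± 1.11, FDR = 0.00725), where 3 libraries held 6.61 to 8.13 CPM and replicate 1 held 42.6 CPM. It fell in SVX_VAS (-2.68 ± 1.06, FDR = 0.0421), where leaving out replicate 1, 3 or 4 or any CONT replicate ended the call, with logFC from -2.77 to -2.31 and FDR up to 0.103. In VAS, where 3 libraries held 62.1 to 90.7 CPM, Ccl28 was not called (-1.87 ± 1.03, FDR = 0.133).

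Ccl11, the eosinophil attractant eotaxin (chromosome 11, 82057823 to 82062955), was at 26.3, 34.8 and 42.8 CPM in CONT and 17.96, 10.9, 1.98 and 2.23 CPM in INT. It fell in INT by 2.07 on the log2 scale (SE 0.76, FDR = 0.0340), with no overlap, and the call was lost without CONT replicate 2 (-2.07, FDR = 0.0629), CONT replicate 4 (-1.89, FDR = 0.0878), INT replicate 3 (-1.78, FDR = 0.0754) or INT replicate 4 (-1.75, FDR = 0.0878). Eosinophil markers were lower in the same direction: the 7 listed genes summed to 19.1 to 22.1 CPM in CONT and 3.34 to 6.39 CPM in INT. Of these genes 1 passed the filter, Il5ra, which fell by 3.69 on the log2 scale in INT (FDR = 0.000224), while Ear1 was at 0 in every library. Ccr3, the receptor of Ccl11, was outside the rule.

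Epithelial and estrogen-responsive markers were measured beside these 3 ligands. In INT 5 of 6 epithelial markers fell (Epcam, Cdh1, Krt8, Krt18 and Cldn7). The list summed to 3209 to 4391 CPM in CONT, and in INT to 2253 and 1846 CPM in replicates 1 and 2 and to 601 and 855 CPM in replicates 3 and 4, in the same split as Cxcl17 and Ccl11. Of the 7 estrogen-responsive genes 2 fell in INT (Muc1 and Greb1). INT replicate 1 held the highest Ccl28 of the mated libraries (208 CPM), and SVX_VAS replicate 2 the next (95.4 CPM). The same 2 libraries held the highest Cxcl17 of the mated libraries (80.5 and 91.2 CPM) and the highest estrogen-responsive sums. VAS replicates 2 and 3 did not follow these markers: they held 89.6 and 62.1 CPM of Ccl28 with the lowest epithelial sums of all libraries (548 and 445 CPM). SVX_VAS replicate 2 did not follow them in Ccl11, which was at 4.68 CPM. The part of epithelium and of hormone state in these results was not tested.

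**Figure D3:**
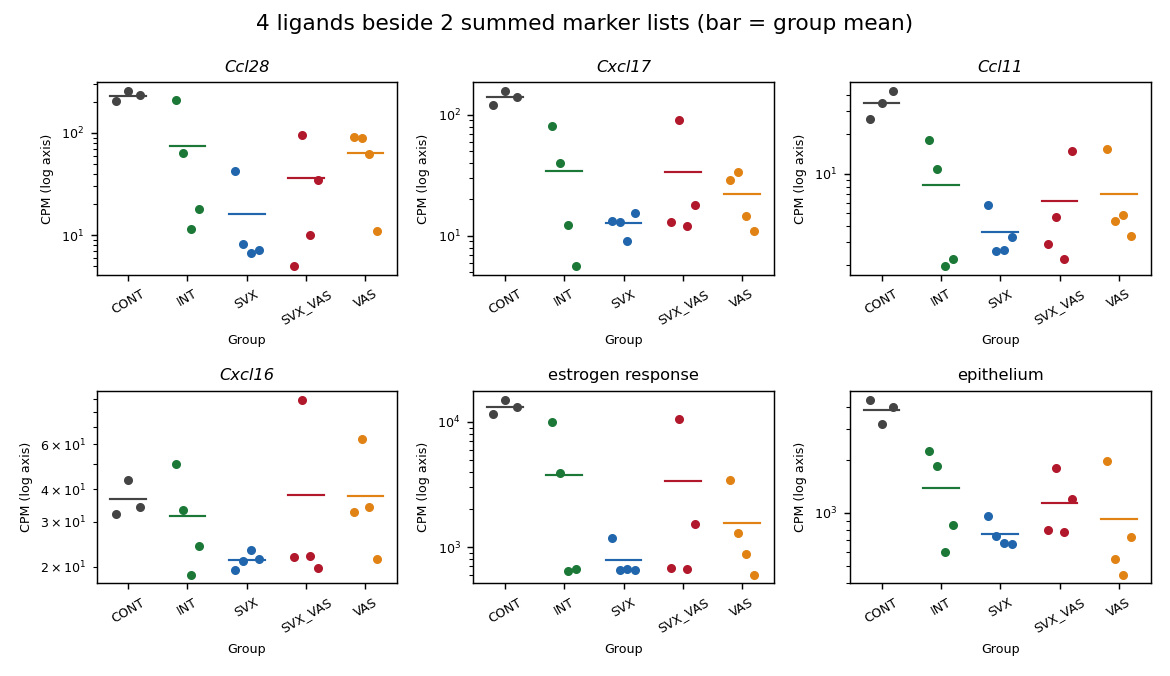
CPM on a log axis by library for Ccl28, Cxcl17, Ccl11 and Cxcl16, beside the summed CPM of 7 estrogen-responsive and 6 epithelial genes, with a bar at each group mean. Ccl28 spans 11.4 to 208 CPM among the 4 INT libraries, and SVX_VAS replicate 2 is the highest mated library for Cxcl17 (91.2 CPM) and Cxcl16 (89.2 CPM).

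Ccl27a and Ccr10 complete this axis. Ccl27a, the skin-homing ligand that also binds Ccr10, was low and tight, at 0.886, 1.11 and 1.43 CPM in CONT and 3.98, 3.57, 3.80 and 4.10 CPM in INT (logFC 1.76 ± 0.17, FDR = 2.73e-06). It gave the lowest FDR of the members in each of the 4 comparisons with CONT. Its exons overlap Il11ra1 on the opposite strand, which was at 17.5 CPM in CONT and 50.6 CPM in INT (logFC 1.53, FDR = 5.98e-06). The near-identical copy Ccl27b was at 0. Reads of Ccl27a may be shared with those of these partners, which was not tested. Ccr10 was at 1.71, 1.53 and 1.96 CPM in CONT and 3.68, 2.63, 5.72 and 5.29 CPM in INT, with no overlap, and was not called (logFC 1.32 ± 0.68, FDR = 0.122). Its level was 0.371 and 0.374 CPM in VAS replicates 2 and 3, against 2.63 to 6.29 CPM in the other mated libraries. Without SVX replicate 1 and VAS replicates 2 and 3 the Ccr10 logFC in INT was 1.34 and the FDR 0.00275, and in a fit of INT and CONT alone they were 1.38 and 0.00819.

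Of the ligands of neutrophils, Cxcl1 and Cxcl2 were near the limit of detection in most libraries, and Cxcl5 above it. These genes, other than Cxcl5, were below the filter and were chosen after their values were seen. Cxcl5 was at 1.0, 1.32 and 0.527 CPM in CONT and 3.46, 0.814, 1.25 and 0.139 CPM in INT. It was at 27.9 CPM in SVX_VAS replicate 2 and at 30.9 and 13.4 CPM in VAS replicates 2 and 3, and at 0.912 to 1.45 CPM in the other libraries of SVX, SVX_VAS and VAS. Cxcl5 was called in VAS (logFC 3.57 ± 1.43, FDR = 0.0429), and the call was lost without VAS replicate 2 (2.42, FDR = 0.143), VAS replicate 3 (3.51, FDR = 0.0626) or any CONT replicate (3.30 to 3.89, FDR 0.0845 to 0.121), and under limma-voom (2.49, FDR = 0.263), the replicate block (2.91, FDR = 0.0822) or no filter (FDR = 0.0626). Without VAS replicates 2 and 3 Cxcl5 did not pass the filter. Cxcl2 reached 23.3 CPM in VAS replicate 2 and 11.6 CPM in SVX_VAS replicate 2, against 1.13 CPM or less in the other 17 libraries. Cxcl1 reached 3.15 and 2.92 CPM in the same 2 libraries, against 0.310 CPM or less elsewhere.

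Cxcr2, the receptor of these ligands, was at 0, 0.0713 and 0.0753 CPM in CONT, which is 2 counts or fewer in each library and under the limit of detection, so no fold is given. With the filter lowered to 1 CPM it was called higher in INT (FDR = 0.0199), SVX_VAS (FDR = 0.0164) and VAS (FDR = 0.000167), and not in SVX (FDR = 0.0829). It was at 0.567 to 0.877 CPM in INT (10 to 14 counts), at 2.46 CPM in VAS replicate 1 and at 8.11 and 11.8 CPM in VAS replicates 2 and 3. Ccr1, another receptor of neutrophils and monocytes, was at 7.05 and 7.71 CPM in VAS replicates 2 and 3 and at 0.650 to 3.16 CPM in the other 17 libraries. The 8 neutrophil markers summed to 48.9 and 59.9 CPM in VAS replicates 2 and 3, to 24.7 CPM in VAS replicate 1, and to 9.22 to 18.1 CPM in the other 16 libraries. Only 3 of the 8 passed the filter, and in VAS against CONT 1 was called higher and 1 lower. The part of neutrophils in these levels was not tested.

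**Figure D4:**
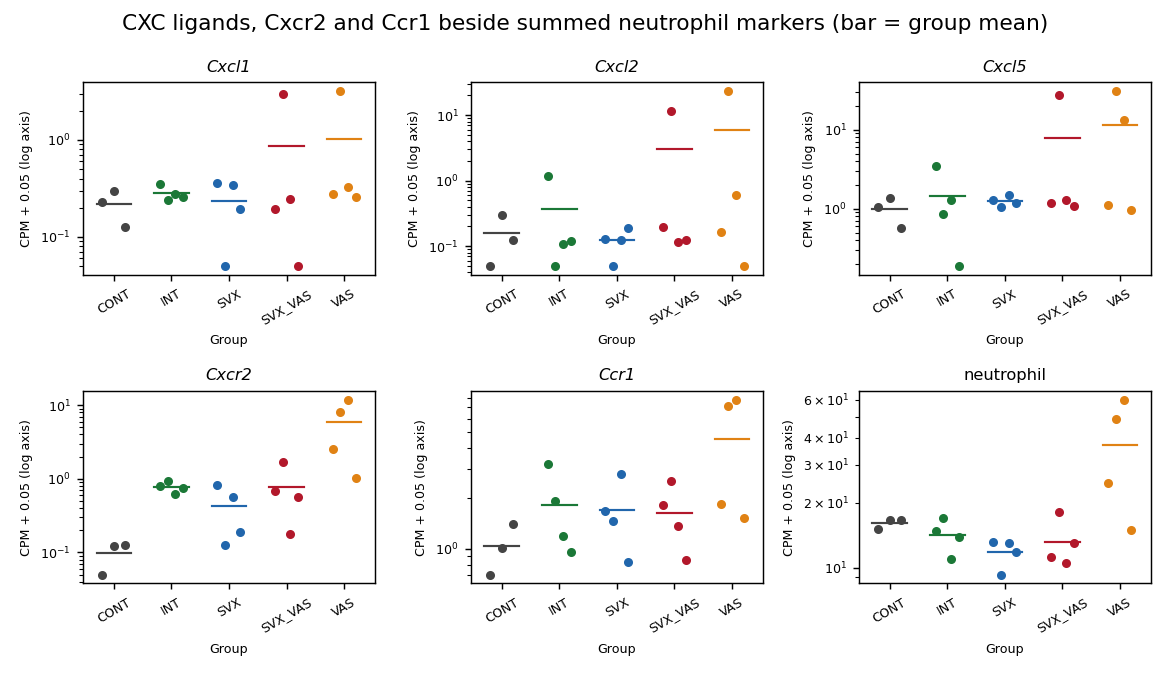
CPM + 0.05 on a log axis by library for Cxcl1, Cxcl2, Cxcl5, Cxcr2 and Ccr1, beside the summed level of 8 neutrophil markers, with a bar at each group mean. Cxcl2 and Cxcl5 are high in SVX_VAS replicate 2 and VAS replicate 2, while Cxcr2, Ccr1 and the sum of the neutrophil markers are highest in VAS replicates 2 and 3.

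The remaining tested members were not called in INT. Cxcl14, an orphan-like epithelial and stromal ligand, was at 24.0, 34.5 and 31.3 CPM in CONT and 24.6, 43.1, 66.2 and 20.2 CPM in INT and was not called in any comparison. The others were chosen after their values were seen. Ccl25, which draws T cells through Ccr9, was at 26.6 to 29.6 CPM in CONT and 30.2 to 36.4 CPM in INT without overlap, with a logFC of 0.21 ± 0.09 (FDR = 0.0718). Ccr9 itself was at 3.07 to 4.24 CPM in CONT and at 0.742 and 1.17 CPM in VAS replicates 2 and 3. Ccl6 and Ccl9, mouse myeloid ligands, had logFC of 0.12 and -0.21 in INT and were not called. Ackr1, the venular chemokine carrier, was not called in INT (logFC 0.47, FDR = 0.178). It was called higher in SVX (0.80, FDR = 0.0226), SVX_VAS (0.70, FDR = 0.0447) and VAS (0.73, FDR = 0.0347), and in VAS its logFC was 0.15 without replicates 2 and 3 (FDR = 0.629). Single libraries ended these calls: CONT replicate 1 or 4 in each comparison (FDR 0.0756 to 0.154), SVX replicate 2 (0.0576), any SVX_VAS replicate (0.0563 to 0.0827) and VAS replicate 2 or 3 (0.0992 and 0.0849). They were also lost under limma-voom (0.0616 to 0.0947) and, in SVX_VAS and VAS, under the replicate block (0.063 and 0.0659) and without a filter (0.0842 and 0.0826). Ackr4, which takes up the ligands of Ccr7 and Ccr9, was called lower in VAS (-0.59, FDR = 0.0236), where replicates 2 and 3 held 9.64 and 13.7 CPM against 18.7 CPM or more in every other library, and without them the logFC was -0.26 (FDR = 0.213). The Ackr4 call was also lost without CONT replicate 2 (-0.40, FDR = 0.149), VAS replicate 2 (FDR = 0.0723) or VAS replicate 3 (FDR = 0.0793).

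The 31 members below the filter were Ackr2, Ccl1, Ccl2, Ccl3, Ccl4, Ccl12, Ccl17, Ccl19, Ccl19-ps1, Ccl19-ps3, Ccl20, Ccl21a, Ccl21b, Ccl22, Ccl24, Ccl26, Ccl27b, Ccr1, Ccr1l1, Ccr4, Ccr6, Ccr7, Ccr8, Cxcl1, Cxcl2, Cxcl3, Cxcl11, Cxcl13, Cxcr1, Cxcr2 and Cxcr5. Of these 4 had 0 counts in all 19 libraries (Ccl19, Ccl19-ps3, Ccl21b and Ccl27b), and a further 9 had between 1 and 30 counts in all. Of the lymph node system, Cxcl13 had at most 4 counts in a library and Ccr7 was at most at 0.748 CPM, while Ccl21a was at 1.13 to 3.20 CPM in 17 libraries and had 1 and 0 counts in VAS replicates 2 and 3. Ccl21a has near-identical copies, so its counts are uncertain. These 3 were chosen after their values were seen.

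In the 3 sets mated with modified males the same comparison with CONT gave 17 to 19 called members, and the CONT libraries are shared by all 4 comparisons. The 10 tested members with no CONT library at 3 CPM passed the filter through mated libraries. The counts of rises are therefore a description here too, and not a result about the members. In SVX 19 of 30 were called (41.6% of all genes tested), 13 higher (23.1% of all genes) and 6 lower (18.5%). In SVX_VAS 17 were called (38.6% of all genes), 13 higher (22.2%) and 4 lower (16.5%). The number lower was 2 without CONT replicate 2, CONT replicate 4 or SVX_VAS replicate 3, and 6 under limma-voom. In VAS 19 were called (40.6% of all genes), 15 higher (23.3%) and 4 lower (17.3%), with 7 lower under limma-voom. In SVX the largest falls were those of Ccl28 (logFC -3.85), Cxcl17 (-3.45) and Ccl11 (-3.28), and the largest rises those of Xcl1 (2.86), Cxcl12 (2.78) and Cxcl9 (2.65). Ccl7 fell in SVX (-1.67, FDR = 0.0264) but not without SVX replicate 1 (FDR = 0.0523), SVX replicate 2 (0.0644) or CONT replicate 4 (0.0746). Ccr10 was called higher in SVX (1.67, FDR = 0.0473), and leaving out any library of SVX or CONT ended that call (FDR 0.0573 to 0.122), as did the replicate block (0.0501), no filter (0.0746) and a filter of 1 CPM (0.0534). Cxcr6 was called higher in VAS (0.67, FDR = 0.0116) and not without VAS replicate 2, where its logFC was 0.50, under the fold threshold. Without VAS replicates 2 and 3, a setting chosen after seeing the data, 13 of the 28 members then tested were called in VAS (36.3% of all genes in that fit), 11 higher (22.1%) and 2 lower (14.2%). Ccl11 (logFC -1.87, FDR = 0.109) and Ccl5 (1.19, FDR = 0.0507) were not called in that fit, while Cxcl12 (2.37), Xcl1 (2.39), Cxcr4 (1.52) and Cxcr3 (1.89) were.

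**Figure D5:**
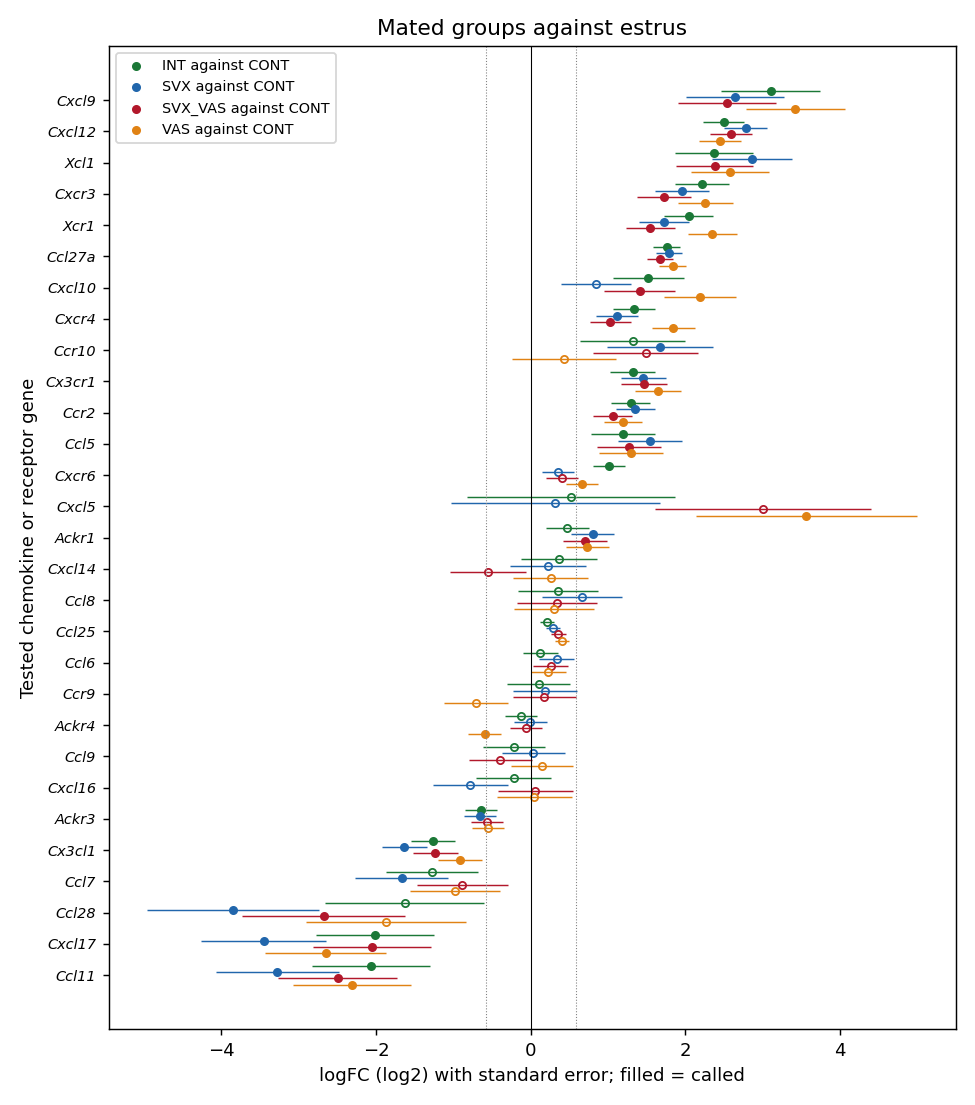
LogFC against CONT on the horizontal axis for tested genes, with bars of 1 standard error, filled points for genes called and dotted lines at the logFC threshold of 0.58. Cxcl12 lies between 2.45 and 2.78 in the 4 mated groups, whereas Ccl28 spans -3.85 to -1.63 and Cxcl5 0.32 to 3.57 with standard errors above 1.

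Against INT, edgeR called no member in any of the 3 sets, nor any of the 17222 genes (0% called). At an unadjusted p under 0.05, edgeR gave 2 members in SVX (Ccl28 and Cxcr6; 4.35% of all genes), 1 in SVX_VAS (Cxcr6; 1.97%) and 4 in VAS (Ackr4, Ccl25, Cxcl5 and Cxcr4; 10.6%). DESeq2 called 0 members in each of the 3 comparisons, and 3, 2 and 0 of all genes in SVX, SVX_VAS and VAS. In VAS, limma-voom called 2 members lower, Ccr9 (logFC -1.27, FDR = 0.0354) and Ccr10 (-2.02, FDR = 0.0332), both of which were low in replicates 2 and 3. In that comparison limma-voom called 1663 of the 17222 genes (9.66%), of which 1643 were lower (9.54%) and 20 higher (0.116%), so 2 of 30 is no more than the share of all genes. By edgeR the logFC was -0.81 for Ccr9 (FDR = 0.452) and -0.89 for Ccr10 (FDR = 0.498) with those replicates, and -0.13 and 0.0064 without them (both FDR = 0.999922). Against CONT, Ccr10 in VAS had a logFC of 0.43 (FDR = 0.590) with them and was called higher without them (1.34, FDR = 0.00617). Cxcr6 was at 14.2 to 19.01 CPM in INT, 8.98 to 11.8 CPM in SVX and 8.26 to 13.1 CPM in SVX_VAS, with no overlap with INT in either. Its logFC against INT was -0.66 ± 0.19 in SVX and -0.61 ± 0.19 in SVX_VAS, with FDRs of 0.9997 and 0.999992. Cxcl10 also did not overlap between SVX (1.70 to 2.63 CPM) and INT (3.12 to 4.66 CPM), with a logFC of -0.68 ± 0.41 (FDR = 0.9997). These were the only 2 tested members whose SVX and INT values did not overlap, both lower in SVX (1.25% of all genes), and Cxcr6 was the only 1 lower in SVX_VAS (0.79% of all genes).

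Genes that act beside the members were taken from lists made for this report. Of 12 other genes of the chemokine system 10 were tested: Cmtm3 (logFC 1.37), Rarres2, which encodes chemerin (1.04), and Ccrl2, which presents it (0.70), rose in INT, while the chemerin receptor Cmklr1 (-1.93) and Cmtm6 (-0.81) fell. Of 26 genes that carry or limit receptor signals, all tested, 12 rose and 3 fell in INT. Those that rose included the G protein subunit Gnai1 (logFC 2.36), both arrestins Arrb1 (1.29) and Arrb2 (1.08), the leukocyte migration genes Dock2 (1.64) and Rac2 (1.45), and the signal-limiting Rgs16 (3.44) and Rgs5 (2.12). Pik3cg (-1.17), Pik3r5 (-1.0) and Plcb3 (-0.72) fell. Their median logFC was 0.36. Of 19 inducers of chemokines 11 were tested, and 1 rose (Relb, 0.95) and 2 fell (Nfkbia, -1.0, and Irf1, -0.74), with a median logFC of 0.08. Tnf, Il6 and Ifng were below the filter.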

How the data were processed

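The deposited file holds raw counts of read fragments per gene for 19 libraries, made by the authors with AdapterRemoval, FastQC, STAR against GRCm38 (mm10) and featureCounts from stranded total RNA libraries. Whether counting used strand is not given in the sources used here. All columns were mapped to samples. Gene names came from GENCODE M21, and promoters from RefSeq (GRCm38.p6).

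Counts were analysed in R 4.3.3 with edgeR 4.0.16: a filter of 3 CPM or more in 3 or more libraries, TMM scaling, 1 group model over all 19 libraries, glmQLFit and glmQLFTest, Benjamini-Hochberg FDR of 0.05 or less and logFC of at least 0.58 in size. The SE is the logFC divided by the root of the F statistic. CPM values use TMM-scaled library sizes. Library totals were 12661266 to 31781270 counts, and the detection limits cover counting error only. No library pair of a group agreed within counting noise. On simulated counts for INT against CONT, 82 of 100 genes changed 4-fold and 51 of 100 changed 2-fold were called, with 3 false calls.

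Alternatives were other size factors, DESeq2 1.42.0, limma-voom (limma 3.58.1), other filters, a fit of only the groups compared, a replicate block, no fold threshold, and libraries left out. Members named with values were the 10 highest per kilobase, all called in INT, and in each other comparison the 10 called with the largest logFC; others were chosen after seeing their values. A tested member is included in the counts and medians but is otherwise not reported here. The members and lists were chosen with earlier results of these data known. Figures used Python 3.11.15 and matplotlib 3.10.9.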

Additional observations from a re-analysis of the deposited data

Results flagged for a closer look

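The 30 tested members and Cxcl1, Cxcl2, Cxcl3 and Cxcr2 were searched by Dixon's test. In 15 of 136 groups of 4 libraries, 1 library lay far from the other 3 on the log2 scale, where chance gives about 6.8. Cxcl1, Cxcl2, Cxcl3 and Cxcr2 were below the filter and were chosen after their values were seen. Cxcl1, Cxcl2 and Cxcl3 are among the 15, so this number is a description and not a result about the members.

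SVX replicate 1 held 38.5 CPM of Ackr3 (27.3 to 28.3 CPM in the others), 42.6 CPM of Ccl28 (6.61 to 8.13 CPM), 74.2 CPM of Cxcl14 (19.8 to 23.2 CPM) and 1.70 CPM of Cxcl10 (2.47 to 2.63 CPM), and SVX replicate 3 held 16.8 CPM of Cx3cl1 (18.01 to 18.3 CPM). SVX_VAS replicate 2 held 89.2 CPM of Cxcl16 (19.8 to 21.9 CPM in the others), 27.9 CPM of Cxcl5 (1.02 to 1.24 CPM) and 11.6 CPM of Cxcl2 (0.0655 to 0.144 CPM). SVX_VAS replicate 4 held 4.24 CPM of Ccl7 (1.54 to 1.68 CPM) and 4.82 CPM of Ccl8 (6.33 to 6.55 CPM), and SVX_VAS replicate 1 held 4.13 CPM of Ccl9 (2.92 to 2.95 CPM). VAS replicate 1 held 2.52 CPM of Ccl8 (6.63 to 7.23 CPM) and 38.4 CPM of Ccr2 (61.0 to 66.6 CPM), and VAS replicate 2 held 3.15 CPM of Cxcl1 (0.210 to 0.280 CPM). INT replicate 1 held 0.225 CPM of Cxcl3, which was at 0 in the other INT libraries and rests on few counts.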

How the results depend on the processing

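Of 72 calls of members against CONT, 49 were kept under every alternative run for them, 23 were lost under at least 1, and 0 changed sign. With a library left out, the number of members called ranged from 12 to 19 in INT against CONT, 16 to 18 in SVX, 13 to 16 in SVX_VAS and 14 to 20 in VAS, and was 0 in each comparison with INT. Under limma-voom, 2 members were called in VAS against INT, where the other fits called 0; that fit called 1663 of 17222 genes (9.66%), and the cause was not tested. In INT against CONT, the logFC of members that were not called changed sign for Cxcl5 under limma-voom (-0.20), and with 1 library left out ranged from -0.38 to 0.90 for Cxcl5, -0.23 to 0.070 for Ackr4, -0.048 to 0.21 for Ccr9, -0.33 to 0.82 for Ccl8, -0.12 to 0.43 for Ccl6 and -0.062 to 0.58 for Cxcl14. With the replicate number as a block, 17, 18, 17 and 18 members were called in INT, SVX, SVX_VAS and VAS against CONT and 0 against INT. The numbers were not taken to pair the libraries, since in no comparison did every same-numbered pair correlate above 0.1 in its deviations from the group means. The correlations were 0.13, -0.30 and 0.16 in INT against CONT, and 0.30, 0.13 and 0.07 in VAS against CONT, where each library correlated best with its own number. Members under 3 CPM were not tested, and at these depths a level under 0.107 to 0.234 CPM was not detectable.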
